A study of Mus musculus with 7 samples.

Results

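The genes described here encode the granins, membrane proteins of the insulin secretory granule, and further proteins listed with them that are not all of the granule membrane. They were 10 gene symbols, taken by name from a table of 35013 genes, and all 10 were found and all passed the filter on low counts in every comparison. They were the granins Chga, Chgb, Scg2, Scg3 and Vgf, the tyrosine phosphatase-like membrane proteins Ptprn and Ptprn2, and Resp18, Nnat and Tmem27. The Tmem27 row carries its current symbol Cltrn and was matched through a RefSeq synonym. The RNA came from sorted pancreatic β-cells of adult mice, 1 library a mouse, in 3 groups. The Aldh1a3 KO_db/db group (n = 2) had both Aldh1a3 alleles floxed and deleted by a Cre driven by the rat insulin promoter, on the diabetic Lepr db/db background. The db/db controls (n = 2) and the lean db/+ controls (n = 3) carried the same Cre with a single floxed Aldh1a3 allele, so that the controls were not wild type at this locus. Both groups on the db/db background are called diabetic below by genotype. The paper reports that fasting glucose of the knockout mice was comparable to that of db/+ mice. All groups carried a tdTomato reporter allele. The study used mice of both sexes, with the sex of each library not in the labels, and mice were fasted overnight before islet isolation.

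Granins are acidic, calcium-binding proteins of the regulated secretory pathway that aggregate with prohormones in the trans-Golgi network and are released with the hormone, and several are cut into bioactive peptides. The phosphatase-like proteins Ptprn and Ptprn2 span the granule membrane, lack the usual phosphatase activity, act in granule stability and cargo content, and are known as islet autoantigens. These genes are expressed throughout the endocrine pancreas and nervous tissue, so that α-, δ- and PP-cells of the islet express most of them besides β-cells.

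Libraries held between 27496645 and 35852785 estimated counts, and levels are given below as CPM, counts per 1000000 counts of a library whose total was scaled by its TMM factor. The targeted gene Aldh1a3, which encodes a retinaldehyde dehydrogenase, was at 4.97 and 7.89 CPM in the knockout, 98.5 and 194 CPM in db/db, and 0.205, 0.0730 and 0.589 CPM in db/+. The labels thus held for the knockout against its diabetic control. The sum over 10 β-cell markers was 225342 to 297543 CPM in KO_db/db, 201602 to 225053 CPM in db/db and 394579 to 442190 CPM in db/+. The insulin genes Ins1 and Ins2 made up most of it in every library. Of the 10 genes, 9 were lower in db/db than in db/+ and 6 in KO_db/db than in db/+ (edgeR adjusted p under 0.05), with 0 higher. Markers of pancreatic acinar cells set the KO_db/db libraries apart. The sum over 42 acinar genes was 204776 and 17884 CPM in these libraries, against 348 to 491 CPM in db/db and 81.6 to 398 CPM in db/+, and for 38 of the 42 both knockout values exceeded both db/db values. Among hormones of other islet cells, Gcg (glucagon) was at 619 to 1026 CPM in KO_db/db, 349 to 603 CPM in db/db and 381 to 1182 CPM in db/+. Sst (somatostatin) was at 500 to 631 CPM in KO_db/db, 82.5 to 162 CPM in db/db and 367 to 2272 CPM in db/+. The α-cell list of 9 genes summed to 1545 to 2068 CPM, 3037 to 3365 CPM and 1439 to 2105 CPM in the same order of groups. The PP-cell list of 4 genes summed to 677 to 910 CPM, 347 to 609 CPM and 151 to 560 CPM. In bulk RNA, fewer cells of a type and less RNA per cell cannot be told apart. The part of these cells in the values below was not tested. An alternative without the acinar genes and the Reg genes they also express is given with each comparison. It changes the scaling, the spread fitted over all genes and the adjustment of p-values. It takes no RNA of other cells out of the members' own counts.

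Transcription of granin genes is classically linked to the cAMP response element (CRE), the site of Creb1 and its relatives, and the sites in the 3 granin promoters that held a match to it are therefore shown. RefSeq windows of 250 bases before to 50 bases after the start site (GRCm38.p6) were at hand for 9 of the 10 members, all but Vgf. Capitals mark the match to TGACGTNA, with 11 bases on each side, and each line runs 5′ to 3′ on the gene's strand. The windows are chr1:79440076-79440105 (minus strand) for Scg2, chr2:132781559-132781588 (plus strand) for Chgb and chr12:102554886-102554915 (plus strand) for Chga.

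Scg2: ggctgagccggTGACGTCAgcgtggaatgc
Chgb: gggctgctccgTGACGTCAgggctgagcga
Chga: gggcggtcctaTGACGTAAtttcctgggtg

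Counted from the RefSeq start site, the full palindrome TGACGTCA lay 68 to 61 bases upstream in Scg2 and 72 to 65 bases upstream in Chgb, and was found in 1.79% of all 32851 promoter windows, both strands searched. Chga held TGACGTAA 44 to 37 bases upstream. GENCODE M21, from which the gene positions below are taken, starts Scg2 and Chgb further upstream, so that these sites of both genes lie in the 5′ UTR of their longest transcript there, while that of Chga lies before the annotated gene. The looser pattern TGACGTNA, which includes the palindrome, was found in 2.93% of all windows. The core TGACG, which lies inside both patterns, was found in 5 of the 9 members with a window (Chga, Chgb, Ptprn, Scg2 and Scg3) and in 20.8% of all windows. Members are counted by gene and the shares by window, and the 32851 windows belong to 27025 genes, so that they are not like for like. These matches are descriptions of the sequence and were not measured as binding sites.

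Per kilobase of the longest coding transcript, Chga was the most abundant member in lean β-cells, at a mean of 6779 CPM per kb (db/+). Scg2 followed at 3236, then Resp18 at 1440, Scg3 at 491, Chgb at 354, Tmem27 at 331, Ptprn2 at 164, Ptprn at 155, Nnat at 25.6 and Vgf at 8.18 CPM per kb. The ranges over libraries overlapped between Chgb and Tmem27 and between Ptprn2 and Ptprn, so that these neighbours were not ordered beyond their spread. In db/db libraries Scg2 and Chga were level, at means of 7749 and 7652 CPM per kb with overlapping ranges. Chgb stood next at 2075 CPM per kb, above Scg3 at 1283 and Resp18 at 1092. In KO_db/db libraries Chga again led, at 11087 CPM per kb against 5140 for Scg2, and Chgb at 972 overlapped Scg3 at 1034. Vgf and Nnat were the lowest members in all 3 groups.

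In db/db β-cells, 7 members rose against lean db/+ cells, 2 fell and 1, Chga, was not past the threshold (edgeR's quasi-likelihood test, Benjamini-Hochberg adjusted p under 0.05). The 9 called of 10 compare with 37.8% of all 13406 genes tested, with 19.9% higher and 18% lower. The rise ranged from 1.71-fold for Ptprn2 to 5.81-fold for Chgb, and Nnat fell 11.8-fold. The db/db and db/+ libraries did not overlap for the same 9 members, against 63.3% of all genes. The median log2 fold change of the members was 0.93, against 0.01 over all genes tested. The members and the lists below were chosen with earlier results of these data known. Such shares and medians, here and below, are therefore descriptions and no independent test. The count was again 9 with acinar and Reg genes left out of the counts. Acinar sums were low in both of these groups, so that this alternative could move little here.

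**Figure D1:**
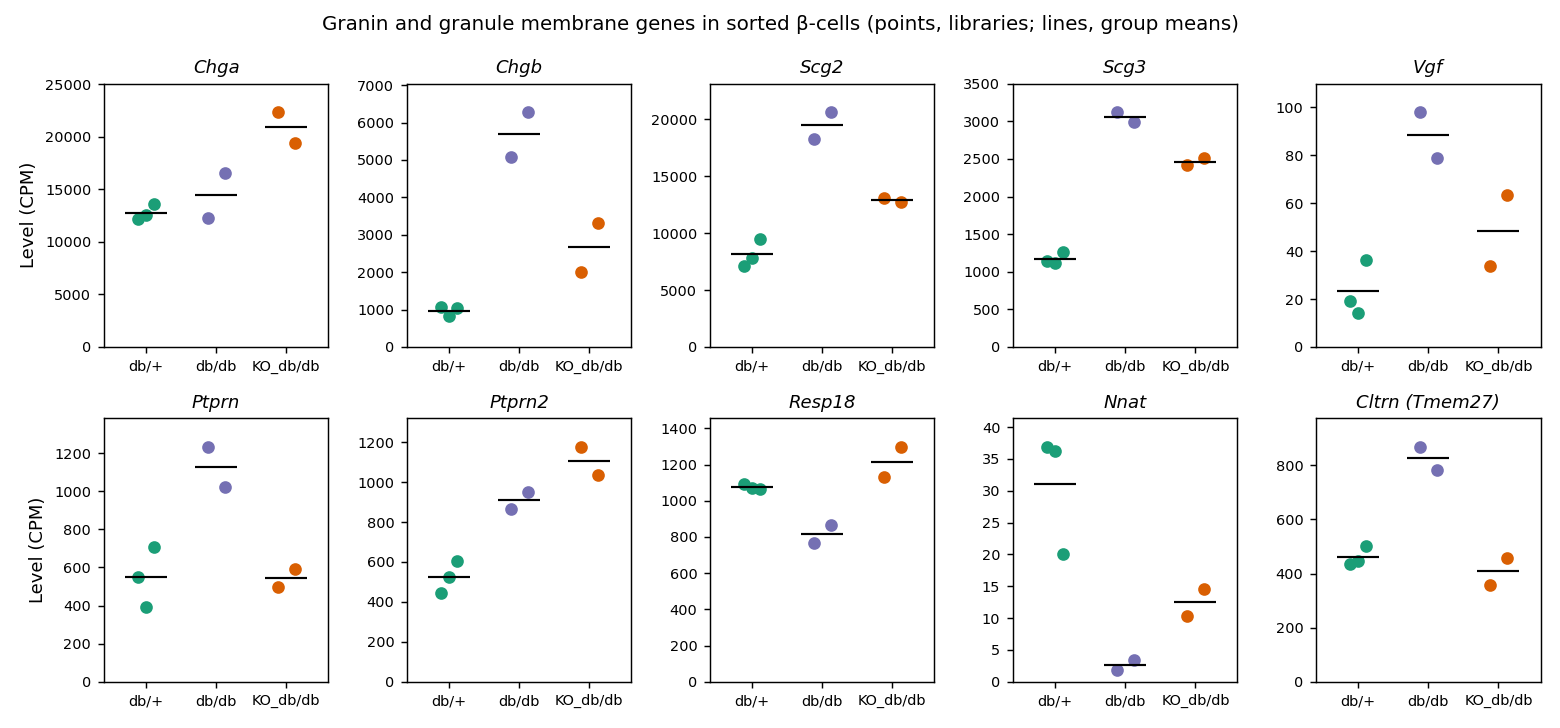
Level of each of the 10 members in CPM (vertical axes, each from 0) in the db/+ (n = 3), db/db (n = 2) and KO_db/db (n = 2) groups, with a point for each library and a line at the group mean. Chgb, Scg2 and Scg3 are highest in db/db with KO_db/db between the control groups, Chga is highest in KO_db/db, and Nnat is lowest in db/db.

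Among the granins, Chga (chr12:102554969-102565028, plus strand, where coordinates of genes are GRCm38), which encodes chromogranin A, did not follow the other granins in db/db against db/+. It was at 22358 and 19396 CPM in KO_db/db, 12293 and 16524 CPM in db/db, and 12180, 12558 and 13553 CPM in db/+. The db/db range overlapped the db/+ range, and both knockout libraries lay above all others. The log2 fold change was 0.16 ± 0.20 (SE) in db/db against db/+ (edgeR adjusted p = 0.560), with a db/db mean of 14408 ± 2992 CPM (SD, n = 2). In KO_db/db against db/+ it was 0.72 ± 0.18 (edgeR adjusted p = 0.0223). That call rested on few libraries. The adjusted p was 0.101 without KO_db/db mouse 2, 0.138 without db/+ mouse 1 and 0.0928 without db/+ mouse 2.

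Chgb (chr2:132781278-132795079, plus strand), which encodes chromogranin B, was the member with the largest rise. It was at 5084 and 6287 CPM in db/db, 1055, 829 and 1030 CPM in db/+, and 2011 and 3317 CPM in KO_db/db. All 3 groups were separate, with the knockout libraries in the middle and 1.65-fold apart from each other. On the log2 scale the change was 2.54 ± 0.18 in db/db against db/+ (edgeR adjusted p = 0.000516) and 1.46 ± 0.25 in KO_db/db against db/+ (edgeR adjusted p = 0.00589). Scg2 (chr1:79434669-79440120, minus strand), which encodes secretogranin II, the precursor of the peptide secretoneurin, showed the same order. It was at 18315 and 20661 CPM in db/db, 7143, 7810 and 9465 CPM in db/+, and 13116 and 12738 CPM in KO_db/db. The groups did not overlap, and the knockout libraries were within 1.03-fold of each other. The fitted log2 fold change was 1.25 ± 0.20 in db/db against db/+ (edgeR adjusted p = 0.00423) and 0.67 ± 0.20 in KO_db/db against db/+ (edgeR adjusted p = 0.0368). The knockout call was lost without KO_db/db mouse 2 (adjusted p = 0.163), db/+ mouse 1 (0.176) or db/+ mouse 2 (0.125).

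Scg3 (chr9:75643189-75684056, minus strand) encodes secretogranin III, which binds cholesterol-rich granule membrane and chromogranin A. It was at 3126 and 2992 CPM in db/db, 1139, 1114 and 1263 CPM in db/+, and 2414 and 2513 CPM in KO_db/db. Replicates were tight, within 1.13-fold in each group, and no groups overlapped. The log2 fold change was 1.37 ± 0.14 in db/db against db/+ (edgeR adjusted p = 0.00102) and 1.08 ± 0.16 in KO_db/db against db/+ (edgeR adjusted p = 0.00370). Vgf (chr5:137026392-137033351, plus strand), a granin-like precursor of several neuropeptides, was expressed at a far lower level. It was at 98.2 and 78.7 CPM in db/db, 19.0, 14.1 and 36.5 CPM in db/+, and 33.6 and 63.3 CPM in KO_db/db. Only db/db stood clear of the other groups, while the knockout range overlapped the lean range. On the log2 scale the change was 1.92 ± 0.37 in db/db against db/+ (edgeR adjusted p = 0.00818) and 1.07 ± 0.42 in KO_db/db against db/+ (edgeR adjusted p = 0.0855). Without KO_db/db mouse 2 the latter was 0.53, and without db/+ mouse 3 it was 1.56 and past the threshold (adjusted p = 0.0170). Genes on the Y chromosome, 4 in number, summed to 100.8 CPM in that mouse and to 0.717 to 2.88 CPM in the other libraries. By these genes that library read as male and the others as female, so that only the db/+ group mixed the sexes. The part of sex in the members' values was not tested.

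Ptprn (chr1:75247027-75264502, minus strand) and Ptprn2 (chr12:116485720-117276849, plus strand) encode related granule membrane proteins but differed across the groups. Ptprn was at 1235 and 1025 CPM in db/db, 549, 390 and 710 CPM in db/+, and 497 and 593 CPM in KO_db/db. Both knockout libraries lay within the lean range, and db/db lay above both groups. The fitted log2 fold change was 1.03 ± 0.25 in db/db against db/+ (edgeR adjusted p = 0.0184) and -0.01 ± 0.25 in KO_db/db against db/+ (edgeR adjusted p = 0.989). The first call was lost without db/db mouse 1 (0.89, adjusted p = 0.0708) or db/+ mouse 1 (1.02, adjusted p = 0.0613). Ptprn2 was at 866 and 950 CPM in db/db, 444, 526 and 606 CPM in db/+, and 1178 and 1035 CPM in KO_db/db. Both diabetic groups were above all lean libraries, with the knockout highest. The log2 fold change was 0.78 ± 0.16 in db/db against db/+ (edgeR adjusted p = 0.0104) and 1.08 ± 0.18 in KO_db/db against db/+ (edgeR adjusted p = 0.00529). The annotation places Mir153 in an intron of Ptprn2 on the same strand, and a gene model of the opposite strand, Gm28294, overlaps an exon of Ptprn. Strand was not stated for these counts, so that reads of such a pair could not be told apart.

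The start sites of Scg2 and Ptprn2 shared a run of letters, shown here because no other promoter window held it. The windows are chr1:79440020-79440045 (minus strand, Scg2) and chr12:116485721-116485746 (plus strand, Ptprn2), and capitals mark the shared run.

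Scg2: gaggaGCTGTCCGGTGCTGAAacggc
Ptprn2: gtggcGCTGTCCGGTGCTGAAgctcg

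On the other strand the run reads TTCAGCACCGGACAGC. It ran from 14 bases upstream to base 2 of the RefSeq transcript in Scg2 and from base 7 to base 22 in Ptprn2, and 2 of 32851 windows held it (0.00609%). Its first part, TTCAGCACC, is the left part of the RE1 element to which the repressor Rest binds, and it was found in 0.371% of windows and in no other member. It was the longest run shared by the windows of any pair of members, 16 bases against at most 11 for other pairs, and was looked up after the members' sequences had been read. Rest, which keeps neuronal and endocrine genes silent in other tissues, had 28 and 8 counts in KO_db/db, 4 and 16 in db/db, and 1, 0 and 4 in db/+, at or below 1.15 CPM in every library. Scg2 and Ptprn2 both rose in db/db and in KO_db/db against db/+, and they lay on opposite sides of db/db in the knockout.

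Resp18 (chr1:75272199-75278415, minus strand), a granule protein related to the lumenal part of Ptprn, lies 7.696 kb from Ptprn on the same strand. It was at 769 and 865 CPM in db/db, 1094, 1073 and 1064 CPM in db/+, and 1132 and 1300 CPM in KO_db/db. Here db/db was the lowest group, with no overlap, the opposite of Ptprn next to it. On the log2 scale the change was -0.41 ± 0.13 in db/db against db/+ (edgeR adjusted p = 0.0431) and 0.18 ± 0.15 in KO_db/db against db/+ (edgeR adjusted p = 0.388). The fall was called by a narrow margin. It was lost without db/db mouse 1 (-0.33, adjusted p = 0.120) and without each db/+ mouse (adjusted p of 0.148, 0.115 and 0.0628). The call was also lost with no filter on low counts (edgeR adjusted p = 0.0739) and in a fit of all 7 libraries (edgeR adjusted p = 0.0770). An exon of Resp18 overlaps the opposite-strand model Gm28902.

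Nnat (chr2:157560078-157562522, plus strand) encodes neuronatin, a small proteolipid of the endoplasmic reticulum that aids signal peptide cleavage of preproinsulin, and is expressed from the paternal allele only. It was at 1.88 and 3.37 CPM in db/db, 36.9, 36.2 and 20.1 CPM in db/+, and 10.3 and 14.6 CPM in KO_db/db. These were 64 and 141 counts in db/db, well above the limit of 3 counts, and the 3 groups did not overlap. The lean library at 20.1 CPM was that of mouse 3. The fitted log2 fold change was -3.56 ± 0.39 in db/db against db/+ (edgeR adjusted p = 0.00127) and -1.30 ± 0.30 in KO_db/db against db/+ (edgeR adjusted p = 0.0153). The second call was lost without KO_db/db mouse 1 (-1.09, adjusted p = 0.0834). Nnat lies inside an intron of Blcap, an imprinted-domain neighbour read from the opposite strand. Blcap was at 33.3 and 32.1 CPM in db/db, 72.4, 77.3 and 61.0 CPM in db/+, and 26.5 and 32.8 CPM in KO_db/db. It was thus lower in both diabetic groups than in db/+, and the diabetic groups overlapped.

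Tmem27 (Cltrn, chrX:164088830-164118860, plus strand), also called collectrin, is a membrane protein that is shed from β-cells by the protease Bace2. It was at 869 and 782 CPM in db/db, 434, 445 and 499.9 CPM in db/+, and 358 and 457 CPM in KO_db/db. The db/db libraries stood above all others, and the knockout and lean ranges overlapped. The log2 fold change was 0.83 ± 0.13 in db/db against db/+ (edgeR adjusted p = 0.00362) and -0.17 ± 0.16 in KO_db/db against db/+ (edgeR adjusted p = 0.433). Bace2 was lower in db/db, at 252 and 214 CPM against 423, 382 and 470 CPM in db/+, a log2 fold change of -0.88 (edgeR adjusted p = 0.00468). In KO_db/db it was at 239 and 251 CPM, close to the db/db libraries.

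In KO_db/db against lean db/+ cells, 6 members passed the threshold, 5 higher (Chga, Chgb, Scg2, Scg3, Ptprn2) and 1 lower (Nnat), of 10 tested. Over all 13228 genes tested the share was 38.4%, with 20.5% higher and 17.9% lower. The groups did not overlap for 7 members, the 6 called and Resp18, against 64.1% of all genes. Ptprn, Tmem27 and Vgf were the members whose knockout and lean ranges overlapped. The median log2 fold change of the members was 0.70. With acinar and Reg genes left out of the counts, the number of calls was again 6 and the log2 fold change of Chga was 0.71. This comparison and the preceding one share the 3 db/+ libraries.

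**Figure D2:**
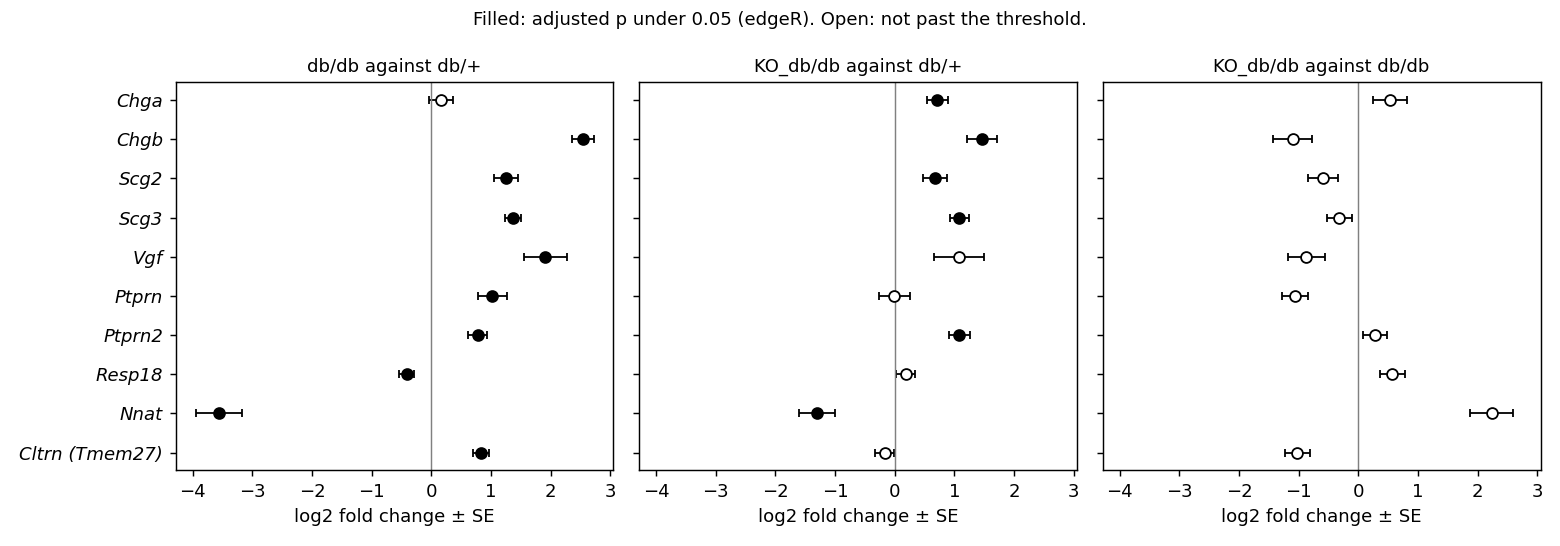
Log2 fold change of each member (horizontal axis, points, with SE bars) in db/db against db/+, KO_db/db against db/+ and KO_db/db against db/db, where filled points have an edgeR adjusted p under 0.05. In the first panel 7 filled points lie to the right and 2 to the left, 6 points are filled in the second, and none is filled in the third.

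In KO_db/db against db/db cells, groups that differ in the second floxed Aldh1a3 allele, no member was past the threshold in edgeR's quasi-likelihood test, where 0.319% of all 13486 genes were. At an unadjusted p under 0.05 there were 6 (Chgb, Vgf, Ptprn, Resp18, Nnat and Tmem27; 20.9% of all genes), and DESeq2 called 6 (Chgb, Scg2, Ptprn, Resp18, Nnat and Tmem27; 10.2% of all genes). The libraries of the 2 groups did not overlap for any of the 10 members, against 57.5% of all genes. Values were lower in the knockout for Chgb, Scg2, Scg3, Vgf, Ptprn and Tmem27, and higher for Chga, Ptprn2, Resp18 and Nnat. The widest difference was that of Nnat, with a log2 fold change of 2.24 ± 0.36 (edgeR adjusted p = 0.0851). Chgb was at -1.10 ± 0.33 (edgeR adjusted p = 0.168), Ptprn at -1.05 ± 0.22 (edgeR adjusted p = 0.108) and Tmem27 at -1.02 ± 0.21 (edgeR adjusted p = 0.108). Vgf was at -0.87 ± 0.32, and at -0.48 without KO_db/db mouse 1 or -1.39 without mouse 2. Scg2 was at -0.60 ± 0.26 and Scg3 at -0.31 ± 0.21. Resp18 was at 0.57 ± 0.21, Chga at 0.53 ± 0.29 and Ptprn2 at 0.28 ± 0.20. With acinar and Reg genes left out of the counts these log2 fold changes moved by 0.01 or less, and again 0 members were called.

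For 4 members (Chgb, Scg2, Scg3 and Nnat) both KO_db/db libraries lay between the libraries of db/db and those of db/+. Over all 13164 genes compared, the share with this order was 15%. Ptprn and Tmem27 had knockout libraries within or below the lean range, Vgf had one within and the other above the lean range, and Chga, Ptprn2 and Resp18 had both above all controls. The summed level of the 10 members was 43108 and 41427 CPM in KO_db/db, 42657 and 50169 CPM in db/db, and 24093, 24795 and 28247 CPM in db/+. Both diabetic groups were above the lean group, and they overlapped with each other. Without Chga, the other 4 granins summed to 17575 and 18632 CPM in KO_db/db, 26624 and 30019 CPM in db/db, and 9356, 9767 and 11795 CPM in db/+, with no overlap. Chga made up 51.9% and 46.8% of the members' summed counts in KO_db/db, 28.8% and 32.9% in db/db, and 50.6%, 50.6% and 48.0% in db/+. A similar pooled level thus held different shares of Chga in the diabetic groups.

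Counts were also set against Chga in the same library, which takes out the scaling between libraries. Chga was itself 1.64-fold higher in KO_db/db than in db/+, which lowers every knockout ratio, so that a ratio is no level of the member. Chgb was at 414 and 380 counts per 1000 Chga counts in db/db, 86.6, 66.0 and 76.0 in db/+, and 89.9 and 171 in KO_db/db. Scg2 was at 1490 and 1250 in db/db, 586, 622 and 698 in db/+, and 587 and 657 in KO_db/db. The Scg2 ratios of the knockout fell inside the lean range, although its CPM lay above every lean library. Ptprn was at 100.4 and 62.0 in db/db, 45.0, 31.1 and 52.4 in db/+, and 22.2 and 30.6 in KO_db/db, and Tmem27 at 70.7 and 47.4, at 35.6, 35.4 and 36.9, and at 16.0 and 23.6 in the same order. For both genes the knockout ratios were below every lean library, while their CPM overlapped the lean range. Resp18 was at 62.5 and 52.4 in db/db, 89.8, 85.4 and 78.5 in db/+, and 50.6 and 67.0 in KO_db/db, where the knockout CPM was above every lean library. These ratios are not corrected for length and are compared between libraries only, and with 2 libraries against 2 the smallest two-sided exact permutation p is 0.333.

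**Figure D3:**
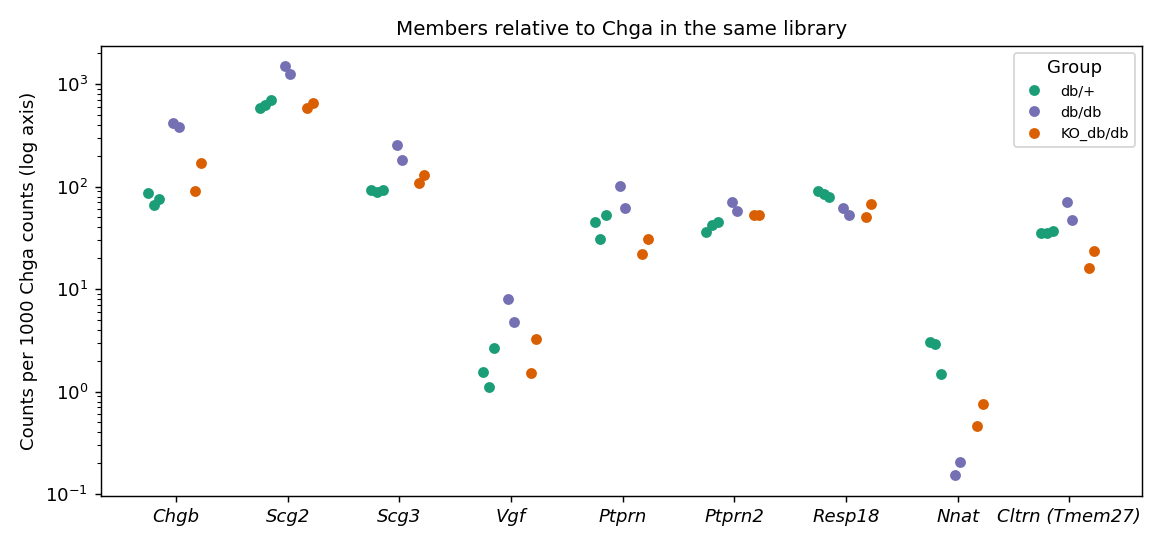
Counts of each other member per 1000 Chga counts in the same library (vertical log axis), with a point for each library of db/+ (n = 3), db/db (n = 2) and KO_db/db (n = 2). The db/db points lie above the others for Chgb, Scg2, Scg3, Vgf, Ptprn, Ptprn2 and Tmem27, and Nnat spans from 0.153 to 3.03.

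Other genes of the granule, taken from lists by role, did not share the median rise of the members in db/db against db/+. Of 10 genes for granule cargo and prohormone processing, 2 rose and 4 fell (median log2 fold change 0.03). The falls were the zinc transporter Slc30a8 (-2.21), Ins1 (-1.87), Ins2 (-0.83) and the prohormone convertase Pcsk1 (-0.78). The rises, named here after their values were seen, were Scg5 (0.73), which encodes the convertase chaperone secretogranin V, and the amidating enzyme Pam (0.63). Of 17 genes for granule formation and sorting, 5 rose and 6 fell (median -0.20). They included Ica1l (-2.06), a homologue of the islet autoantigen Ica1, the SNARE protein Vti1a (-1.02) and Ccdc186 (0.90), which acts in granule maturation. Of 18 other granule membrane and docking genes tested of 19, 4 rose and 8 fell (median -0.14), among them Sytl4 (granuphilin, -2.35), Sv2c (1.63) and the priming factor Cadps (-1.35). Stxbp5l was at 6.55, 5.80 and 2.25 CPM in db/+ and at 0.235 and 0 CPM in db/db.

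Among 16 tested of 17 regulators of neuroendocrine genes, 2 rose and 5 fell in db/db (median -0.14). The splicing factor Srrm4 was at 1.73, and Crem (-1.06), Creb1 (-1.05) and the zinc finger factor Insm1 (-0.69) fell. Creb1, whose site is marked in the promoters above, was at 27 and 16.8 CPM in db/db, 46.3, 49.3 and 39.6 CPM in db/+, and 18.6 and 20.9 CPM in KO_db/db. It was lower in both diabetic groups than in every lean library. Not all listed regulators went this way. The other rise in db/db, named here after its value was seen, was Crtc2 (0.46, edgeR adjusted p = 0.0223). Crtc2 was also higher in KO_db/db than in db/+ (0.66, edgeR adjusted p = 0.00767). Atf1 was not past the threshold in db/db (-0.20) or in KO_db/db (0.13) against db/+. Of 13 partners of Tmem27 and Nnat, 1 rose and 6 fell (median -0.48), among them Blcap (-1.11), Bace2 (-0.88) and the calcium pump Atp2a3 (-0.83). Immediate early genes, which respond to cell activity and to cell handling, rose for 10 of 14 tested (median 2.13), with a list sum of 2573 and 1210 CPM in db/db, 306, 261 and 334 CPM in db/+, and 309 and 881 CPM in KO_db/db. Their part in the members' values was not tested.

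In KO_db/db against db/+, the cargo list had 0 genes higher and 3 lower (Ins1, Pcsk1, Slc30a8), and the formation and sorting list 1 higher and 4 lower. The membrane and docking list had 4 higher and 7 lower, the regulators 4 higher and 3 lower, and the partners 1 higher and 6 lower. Between the knockout and db/db, 0 of the 75 genes of these 5 lists that were tested passed the threshold in edgeR's test, 20 were at an unadjusted p under 0.05 and 10 were called by DESeq2, or 26.7% and 13.3% of them against 20.9% and 10.2% of all genes.

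**Figure D4:**
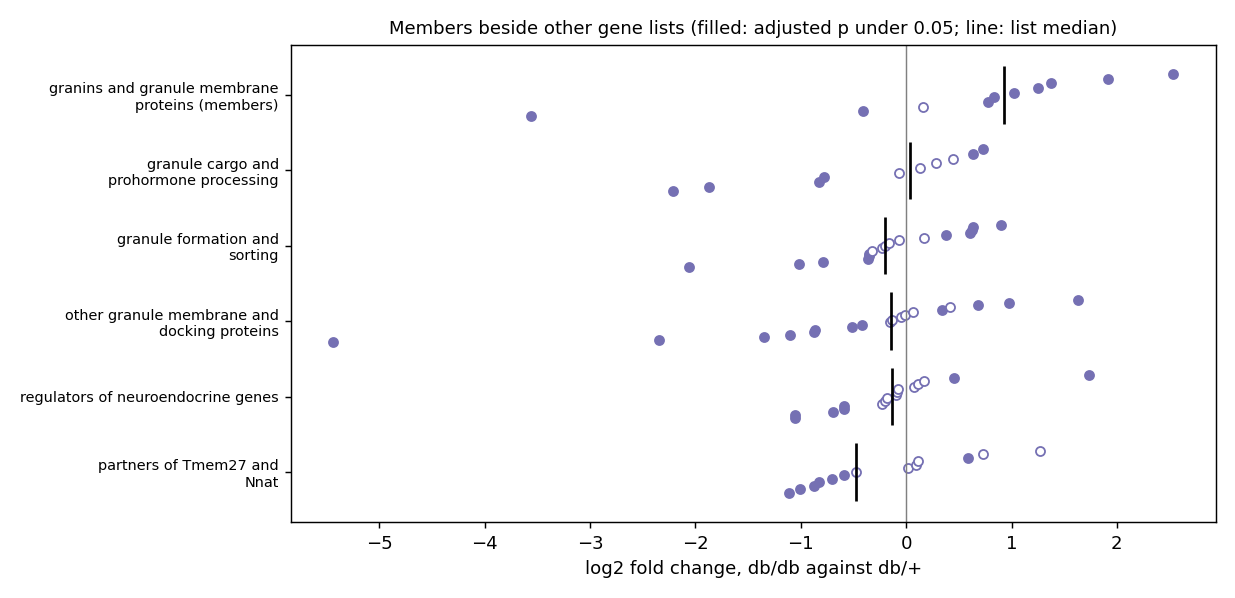
Log2 fold change in db/db against db/+ (horizontal axis) of each gene of the members and of 5 other granule and regulator lists (rows), filled where the edgeR adjusted p was under 0.05, with a line at the list median. The members' median is at 0.93, and the other medians lie between -0.48 and 0.03.

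The genes whose levels ran closest to each member over the 7 libraries were found among 7673 genes with a mean of at least 10 CPM, by Pearson's r of log2 CPM. With 7 libraries in 3 groups and so many genes, high values are common and are a description only. Chga ran closest with Epb41 (r = 0.995), Chgb with the kinase Ptk2b (0.998), Scg2 with Fancm (0.995) and Gc (0.993), and Scg3 with Wdr26 (0.999). Vgf ran closest with Brcc3 (0.993), Ptprn with Odr4 (0.993), Ptprn2 with Arid4b (0.996), Resp18 with Cd82 (0.985), Nnat with the mitochondrial chaperonin Hspd1 (0.997) and Tmem27 with Tmbim4 (0.981). Gc is itself one of the α-cell markers, and it was at 676 and 737 CPM in db/db against 62.1, 71.5 and 127 CPM in db/+. Ttr, also of that list, was at 1908 and 1717 CPM in db/db against 520, 504 and 679 CPM in db/+. Of the 7 α-cell genes tested, these 2 rose in db/db, Slc7a2 fell (log2 fold change -0.66, edgeR adjusted p = 0.0299) and 4 were not past the threshold, Gcg among them.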

How the data were processed

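Poly-A RNA of sorted β-cells from 7 mice was sequenced as paired-end TruSeq libraries. The authors quantified transcripts with kallisto (0.44.0, GRCm38, per the labels) and deposited the estimated counts per gene symbol as whole numbers. The annotation release is not given in the sources used here. Genes passing filterByExpr (minimum count 10) were scaled by TMM and tested between pairs of groups with edgeR's quasi-likelihood test (edgeR 4.0.16, R 4.3.3). P-values were adjusted over all genes tested and called under 0.05, and the SE is the log2 fold change over the root of its F. DESeq2 (1.42.0) was an alternative. On simulated counts with 200 genes changed by 2 on the log2 scale, edgeR found 200 for db/db against db/+ (13152 genes). It found 189 for KO_db/db against db/db (13227 genes) and 196 for KO_db/db against db/+ (13020 genes). Other genes called were 12, 6 and 6 in the same order. Each gene was simulated with the spread of the trend over genes and not its own, and only genes above a set level were changed. The numbers found are therefore no measure of recovery in the real data. Recovery of genes that differ by less than 2 was not tested. In KO_db/db against db/db, Nnat was at 2.24 and was not called, and the other members were at -1.10 to 0.57. Each library is a mouse, so that p-values measure the spread between mice. Counting error is small at these depths, the 3-count floor being 0.0717 to 0.123 CPM. The members and lists were chosen with earlier results of these data known. Of each list at most the 4 largest called changes and defining genes were named. Bace2, Creb1, Blcap, Rest, Gc and Ttr had all libraries given since they neighbour, act on or mark what is described. The values of 1 listed gene are not reported here. Gene positions are from GENCODE M21, and levels per length use its longest coding transcript.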

Additional observations from a re-analysis of the deposited data

How the results depend on the processing

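Of 41 recalculations of the number of members called, 37 stayed within 1.5 times of the reported value. In KO_db/db against db/db, where 0 were called, DESeq2 called 6, the fit without a filter on low counts 5 (Chgb, Vgf, Ptprn, Nnat and Tmem27) and a fit of all 7 libraries 2 (Nnat and Tmem27), while over all genes 43 became 1369, 1570 and 818. A threshold of 0.01 left 6 of the 9 calls in db/db against db/+ and 3 of the 6 calls in KO_db/db against db/+. It could not change the 0 calls in KO_db/db against db/db. With each mouse left out in turn, 7 to 9 members were called in db/db against db/+, 4 to 7 in the knockout against db/+ and 0 in the knockout against db/db, where a lone library was taken to vary like the other group. Of 380 recalculations for single members, 342 kept direction and side of the threshold, 16 lost and 16 gained a call, and 6 changed sign. Chga changed sign in db/db against db/+ (-0.071 without db/db mouse 2, and from -0.071 to 0.36 over single mice left out). Ptprn, at -0.01 in KO_db/db against db/+, was at 0.0076 with RLE scaling, 0.0077 with DESeq2, 0.11 without KO_db/db mouse 1, -0.20 to 0.22 over single mice left out, highest without db/+ mouse 3, and 0.24 with the mouse number as a replicate block. Mice with the same number share only that number (correlation of their deviations from -0.102 to 0.0759). With the block, 8, 7 and 0 members were called in db/db against db/+, KO_db/db against db/+ and KO_db/db against db/db, Resp18 losing its call (adjusted p = 0.0801) and Vgf gaining it in KO_db/db against db/+ (adjusted p = 0.0428), and over all genes in KO_db/db against db/db 22 were called. The causes were not tested. No other scaling moved the median of all genes by more than 0.015.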
